A study of Mus musculus with 12 samples.

Results

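Troglitazone was compared with its vehicle in mouse ear skin inflamed with imiquimod. The comparison takes 6 of the 12 RNA-seq libraries of the series, picked by their treatment label and by no measured value: 3 labelled IMQ_Troglitazone and 3 labelled IMQ_Veh. All were made from ear skin of C57BL/6 mice aged 8 to 12 weeks and carry the label day 6. Both groups had 20.8 mg of Aldara, a cream with 5% imiquimod, put on the back of the ears each day, and the skin was taken 1 day after the last dose. IMQ_Troglitazone mice had troglitazone injected into the peritoneum daily at 150 mg/kg from day 3, so the cream was already in use when the compound was first given. IMQ_Veh mice had DMSO, the solvent. The series also holds 3 libraries of IMQ_GW3965, which activates the liver X receptors (LXR) and was given at 20 mg/kg by the same route, and 3 of UTX_Veh, a label with UTX in place of imiquimod. UTX_Veh serves below as a level to read the values against, and its libraries also enter the joint fit of all 12 from which the calls come. No source used here states whether the replicates of a group are separate mice, so the p-values rest on spread among libraries that may be technical.

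Troglitazone belongs to the thiazolidinediones, compounds that bind and activate PPARγ, a nuclear receptor for fatty acids and their oxidation products. PPARγ pairs with a retinoid X receptor and turns on genes of fatty acid uptake, storage and oxidation; in macrophages it also restrains inflammatory genes, and in skin it is known from sebaceous glands and from keratinocytes as they differentiate. Imiquimod activates Toll-like receptor 7 and, through interleukin-23 and interleukin-17, gives the mouse ear a thickened, scaling epidermis filled with neutrophils, a common model of psoriasis.

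The 6 libraries held between 19800565 and 25641602 expected counts. The labelled tissue, skin, was checked against its markers: Krt5, a keratin of the basal layer of the epidermis, was between 6742 and 9840 CPM (counts scaled to library size) in all 6. Ear skin is a mixed tissue, and in bulk RNA fewer cells of a type and less RNA per cell cannot be told apart. Skeletal muscle genes took 0.922%, 0.776% and 1.15% of counts in troglitazone replicates 1 to 3, against 0.228%, 0.268% and 0.909% in vehicle replicates 1 to 3. Vehicle replicate 3 therefore stood apart from its group in muscle content. Troglitazone replicate 3 was the highest of its group in 77.6% of the genes that were higher with troglitazone and the lowest in 61.4% of those that were lower. Mitochondrially encoded genes took 2.55% to 3.15% of counts in troglitazone libraries and 3.12% to 3.51% in vehicle libraries. No 2 libraries of a group were copies: their counts differed far beyond sampling noise, with a chi-square per degree of freedom of 14.3 or more. File names carry 1 of 2 lane fields, with troglitazone replicates 1 and 3 and vehicle replicate 2 in L001 and the other 3 in L009.

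With troglitazone, 14 of 25 wound keratins and envelope precursors, 4 of 7 neutrophil chemokines and 9 of 34 cell cycle genes were lower. Higher were 21 of 36 genes of the resting epidermal barrier and 6 of 27 genes of fatty acid synthesis. Of 17130 genes tested with edgeR's quasi-likelihood test, 1600 changed at an adjusted p under 0.05, which is 9.34%. Of these, 803 were higher with troglitazone (4.69% of genes tested) and 797 were lower (4.65%). The median size of these changes, whatever their direction, was 0.64 on the log2 scale, and 281 were at least 2-fold higher and 172 at least 2-fold lower. In 1570 of the 1600 the CPM values of the groups did not overlap, as they did not in 25.8% of all genes tested. Within lanes 1599 of the 1600 kept their sign, a direction that groups without overlap largely fix beforehand. With the lane field as a covariate 1009 genes passed.

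These calls use the spread of all 12 libraries, and their number rested on single libraries. Fitted on only the 6 libraries, edgeR called 0 genes, with 3349 at an unadjusted p under 0.05 and a lowest adjusted p of 0.0944. On those 6 libraries limma-voom also called 0, with 3635 at an unadjusted p under 0.05, and DESeq2 called 1125. Leaving out vehicle replicate 1 left 162 calls (0.946%), leaving out troglitazone replicate 3 left 304 (1.77%) and leaving out troglitazone replicate 1 left 763 (4.45%). Without troglitazone replicate 2 there were 1093 calls (6.38%), without vehicle replicate 2 there were 1125 (6.57%), and without vehicle replicate 3, the one richer in muscle, there were 4491 (26.2%). In all 6 of these fits 137 genes passed in the same direction, 84 higher and 53 lower. As shares of all genes tested, the fit without vehicle replicate 3 called 14.6% higher and 11.6% lower, the one without vehicle replicate 1 0.59% and 0.356%, and the one without troglitazone replicate 3 0.922% and 0.852%. Without troglitazone replicate 1 the shares were 2.38% higher and 2.07% lower, without troglitazone replicate 2 3.74% and 2.64%, and without vehicle replicate 2 3.52% and 3.05%. Counts of list members in those fits, given below, stand against these shares. Where a gene is said below to pass with any library left out, it is one of those 137.

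**Figure D1:**
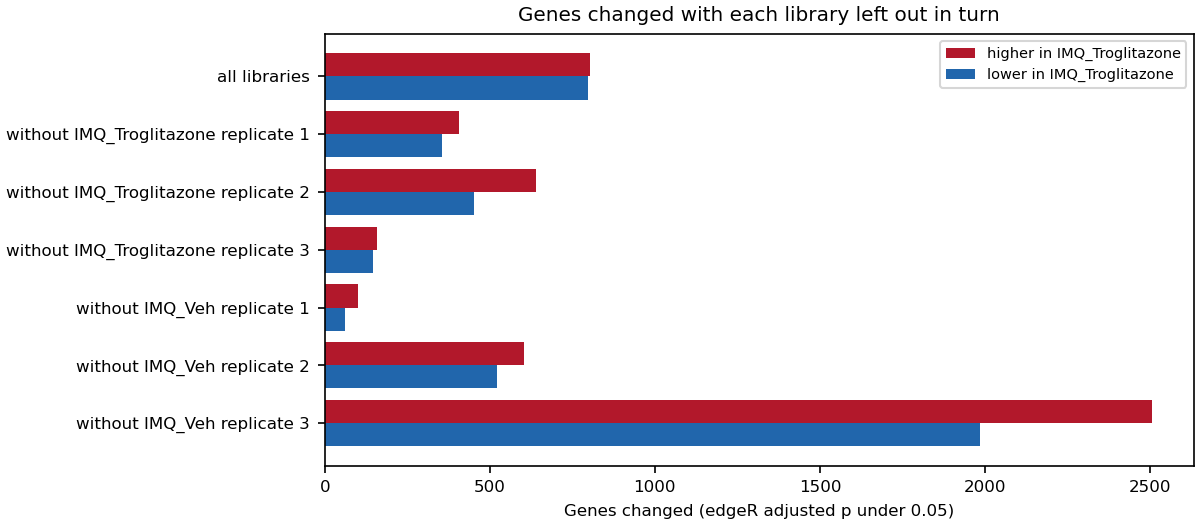
Number of genes changed (x axis, edgeR adjusted p under 0.05) with all libraries and with each of the 6 libraries left out in turn; red bars are genes higher and blue bars genes lower in IMQ_Troglitazone than in IMQ_Veh. The count lies between 162 without IMQ_Veh replicate 1 and 4491 without IMQ_Veh replicate 3.

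**Figure D2:**
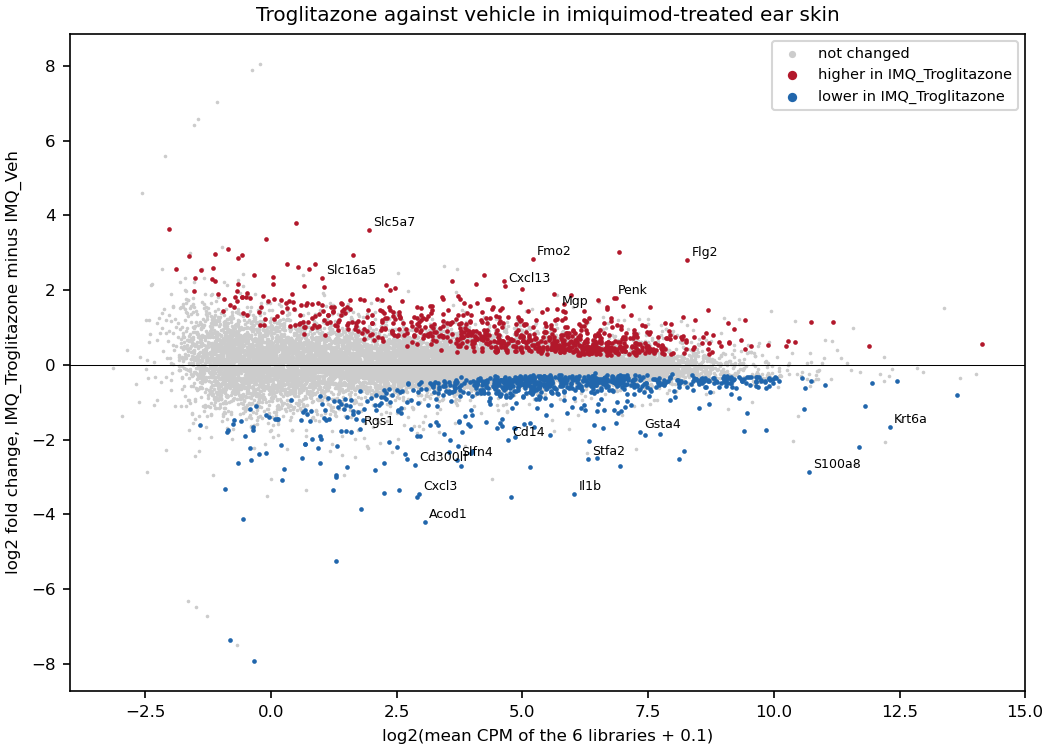
Each point is 1 of the 17130 genes tested: mean level over the 6 libraries (x axis, log2 of CPM plus 0.1) against the log2 fold change, IMQ_Troglitazone minus IMQ_Veh (y axis). Red points are the 803 genes higher and blue points the 797 genes lower at an edgeR adjusted p under 0.05; named genes are among those described in the text.

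The 12 higher genes described first were ranked by the number of left-out fits they passed and then by size, so each passes with any library left out by that choice. Their functions varied. Flg2 (ENSMUSG00000049133, chromosome 3, 93197278 to 93221391 on the plus strand of GRCm38) encodes filaggrin-2, a protein of the cornified layer. It was at 487, 372 and 769 CPM in troglitazone libraries, against 44.1, 64.3 and 124 CPM in vehicle libraries. The groups did not overlap, and the gene was 6.99-fold higher with troglitazone (log2 2.81 ± 0.37 standard error, adjusted p = 0.00632). UTX_Veh libraries averaged 1549 CPM, above both. Without vehicle replicate 3 the log2 difference was 3.32. Fmo2, a flavin-containing monooxygenase (ENSMUSG00000040170, chromosome 1, 162874317 to 162898726, minus strand), was at 46.4, 38.3 and 109 CPM with troglitazone, against 5.71, 11.8 and 9.71 CPM with vehicle. Its highest value by far was troglitazone replicate 3, without which the log2 difference was 2.21, against 2.82 ± 0.40 with it (adjusted p = 0.00676). Slc5a7, the high-affinity choline transporter known from cholinergic neurons (chromosome 17, 54273590 to 54299034, minus strand), was at 7.11, 4.51 and 9.40 CPM with troglitazone, against 0.104, 1.21 and 0.315 CPM with vehicle. The difference was the largest of the 12 (log2 3.601 ± 0.594, adjusted p = 0.0102), on a base of few reads in vehicle libraries, and it was 5.05 without vehicle replicate 2. UTX_Veh libraries averaged 0.0683 CPM of Slc5a7, below both groups.

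Cxcl13, the chemokine that draws B cells into lymphoid follicles, was the 1 member of the chemokine lists that rose. It was at 49.4, 27.9 and 44.0 CPM with troglitazone, against 13.0, 6.35 and 8.76 CPM with vehicle (log2 2.12 ± 0.28, adjusted p = 0.00632). All 3 troglitazone libraries lay above all 3 vehicle libraries, and UTX_Veh libraries averaged 0.181 CPM. The remaining 8 were Slc16a5, of the monocarboxylate transporter family (log2 2.33 ± 0.34), Spock2, a matrix proteoglycan (2.25 ± 0.34), Penk, the precursor of enkephalins (1.78 ± 0.28), Cdkn1c, an inhibitor of the cell cycle (1.76 ± 0.26), the transcription factors Pou3f3 (1.74 ± 0.29) and Msx1 (1.58 ± 0.25), the growth factor Bmp2 (1.66 ± 0.22) and Mgp, an inhibitor of calcification (1.49 ± 0.27). Their adjusted p-values lay between 0.00632 and 0.0127. For Penk, the values were 161, 131 and 232 CPM with troglitazone, against 31.6, 52.4 and 68.6 CPM with vehicle and a UTX_Veh mean of 190 CPM.

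The 12 lower genes were ranked in the same way, so they too pass with any library left out by choice, and some genes with larger falls, such as Cxcl2 and Il1b, come further below. Acod1, which makes itaconate in activated macrophages (ENSMUSG00000022126, chromosome 14, 103046977 to 103056573, plus strand), was at 2.03, 0.339 and 0.123 CPM with troglitazone, against 12.1, 22.1 and 12.6 CPM with vehicle. The groups were far apart (log2 -4.21 ± 0.78, adjusted p = 0.0127), and the difference was -6.09 without troglitazone replicate 1. Osm, the cytokine oncostatin M, was at 1.82, 0.970 and 0.287 CPM with troglitazone, against 9.49, 11.1 and 10.97 CPM with vehicle (log2 -3.35 ± 0.57, adjusted p = 0.0113; -4.09 without troglitazone replicate 1). Nlrp3, the sensor of the inflammasome that activates interleukin-1β, was at 3.05, 1.89 and 1.07 CPM with troglitazone, against 9.49, 11.9 and 10.02 CPM with vehicle. That is 5.22-fold higher in vehicle libraries (log2 -2.38 ± 0.33, adjusted p = 0.00676). Cd14, the co-receptor for bacterial lipopolysaccharide, was at 15.3, 7.86 and 7.96 CPM with troglitazone, against 37.4, 41.1 and 46.6 CPM with vehicle (log2 -2.01 ± 0.24, adjusted p = 0.00562). UTX_Veh libraries averaged 0.0655 CPM of Acod1, 0.402 of Osm, 0.873 of Nlrp3 and 4.54 of Cd14, so vehicle libraries were the highest of these 3 groups for each.

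The other 8 genes of that rank were the chemokine Cxcl3 (log2 -3.46 ± 0.62), Cd300lf, an inhibitory receptor of myeloid cells (-2.69 ± 0.39), Slfn4 of the schlafen family (-2.54 ± 0.39), the cysteine protease inhibitor Stfa2 (-2.53 ± 0.43), Trem1, a receptor that amplifies neutrophil and monocyte responses (-2.52 ± 0.41), Ptgs2, the inducible cyclooxygenase (-1.94 ± 0.35), the glutathione transferase Gsta4 (-1.79 ± 0.25) and Rgs1, a regulator of G-protein signalling in lymphocytes (-1.71 ± 0.30). Their adjusted p-values lay between 0.00676 and 0.0126. Gsta4 had the most reads of them, at 93.0, 83.6 and 42.5 CPM with troglitazone, against 322, 212 and 223 CPM with vehicle.

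**Figure D3:**
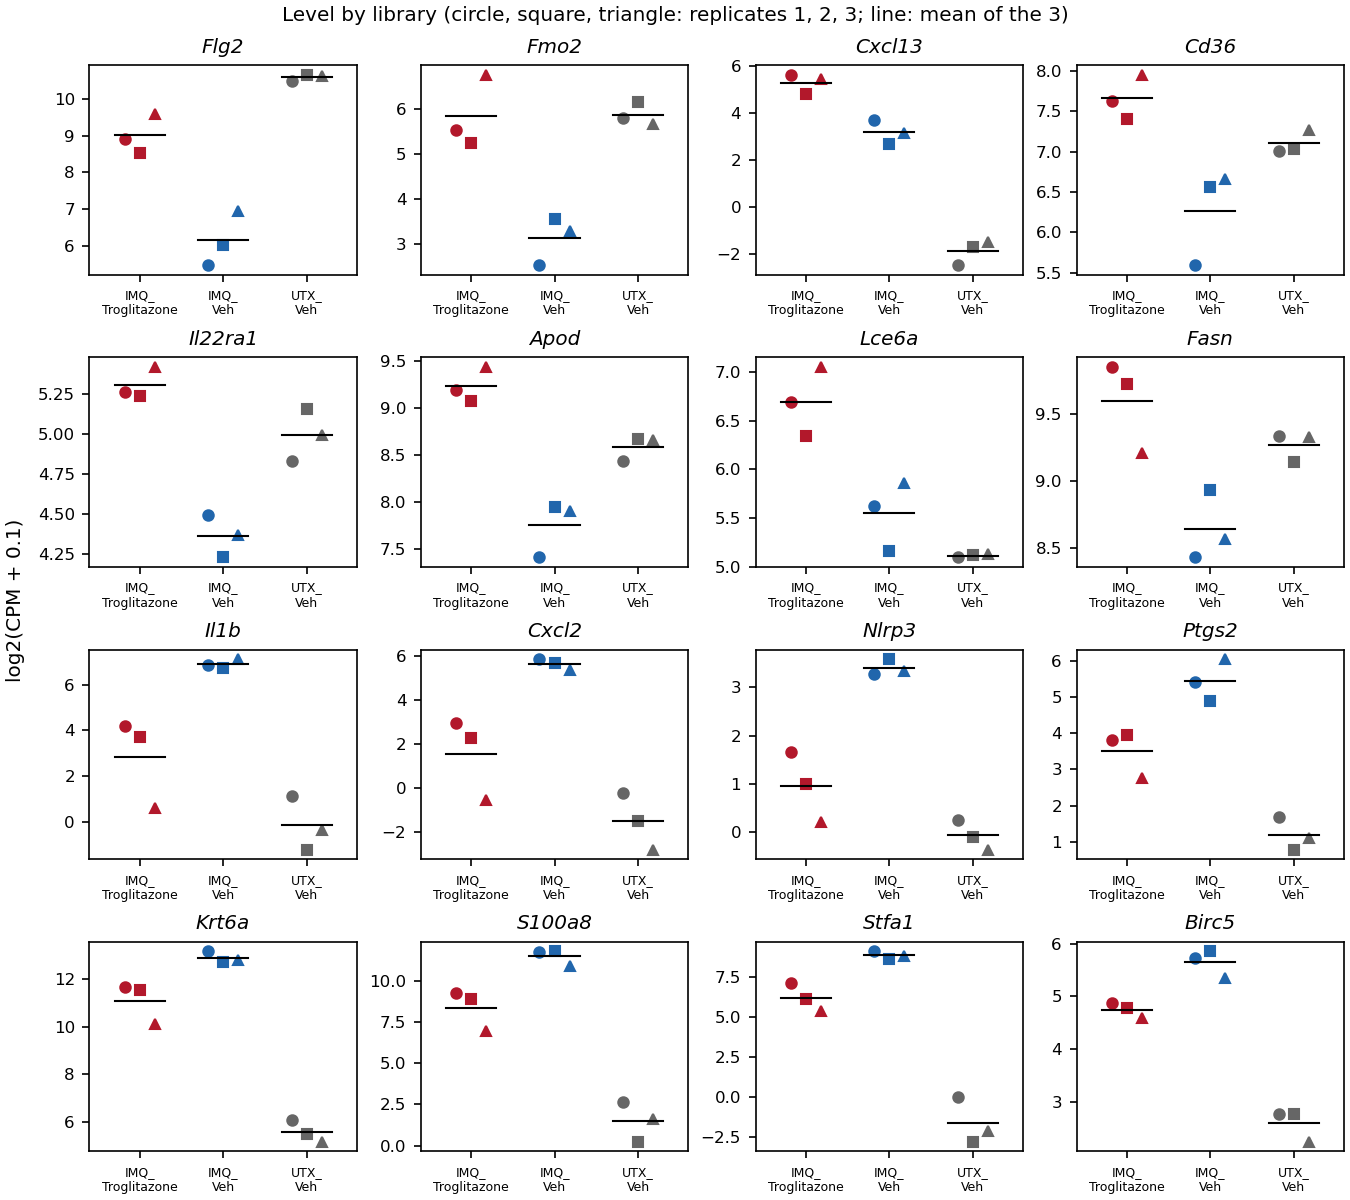
Level of 16 genes by library (y axis, log2 of CPM plus 0.1) in IMQ_Troglitazone (red), IMQ_Veh (blue) and UTX_Veh (grey); circles, squares and triangles are replicates 1, 2 and 3 and the line is the mean of the 3 points. In each panel shown the troglitazone and vehicle points do not overlap, and troglitazone replicate 3 is the lowest troglitazone library for Il1b, Cxcl2, Nlrp3, Ptgs2, Krt6a, S100a8 and Stfa1.

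Among the receptors, Pparg itself was at 13.2, 13.9 and 12.2 CPM with troglitazone, against 7.52, 8.69 and 10.4 CPM with vehicle. The groups did not overlap, but the difference missed the threshold (log2 0.56 ± 0.17, adjusted p = 0.0592). Ppard, the PPAR of proliferating keratinocytes, fell to 106, 112 and 80.7 CPM with troglitazone, against 153, 157 and 118 CPM with vehicle (log2 -0.52 ± 0.14, adjusted p = 0.0435). The call was lost without troglitazone replicates 1 (adjusted p = 0.075) and 3 (0.159), without vehicle replicates 1 (0.159) and 2 (0.118), and after length correction (0.0552). Per unit of transcript length, on the deposited TPM scale (transcript counts scaled for length and depth), the levels in troglitazone libraries were 53.5 ± 9.45 for Ppard, 11.5 ± 0.818 for Pparg and 1.68 ± 0.316 for Ppara (SD, n = 3). In vehicle libraries they were 61.0 ± 8.94 for Ppard, 6.57 ± 1.41 for Pparg and 0.970 ± 0.598 for Ppara, the same order. Of 17 receptors and partners, 3 were higher and 1 lower, with a median of 0.18 against -0.018 over all genes tested. The 3 that rose were the coactivators Ncoa1 (0.38 ± 0.07) and Ncoa2 (0.47 ± 0.12) and the corepressor Ncor1 (0.30 ± 0.08). None of the 4 passed after length correction, and none passed without troglitazone replicate 3 or without vehicle replicate 1.

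PPAR target genes of fatty acid uptake and storage were mostly on the higher side, but few passed. Of 24 tested, 5 were higher and 1 lower, and the median was 0.66. Cd36, the fatty acid and oxidized lipoprotein receptor and a direct PPARγ target in macrophages (ENSMUSG00000002944, chromosome 5, 17781690 to 17888801, minus strand), was at 198, 169 and 248 CPM with troglitazone, against 48.1, 94.4 and 101 CPM with vehicle. All 3 troglitazone libraries lay above all vehicle libraries and above the UTX_Veh mean of 138 CPM (log2 1.34 ± 0.24, adjusted p = 0.0126). Cd36 passed with any library left out. Pnpla2, the triglyceride lipase of fat cells, was at 155, 112 and 185 CPM with troglitazone, against 54.5, 54.1 and 90.5 CPM with vehicle (log2 1.18 ± 0.22, adjusted p = 0.0127; 0.0555 without troglitazone replicate 3 and 0.0596 without vehicle replicate 1). Also higher were the fatty acid transporter Slc27a4 (0.42 ± 0.12) and Plin4, a lipid droplet coat protein that was named after its value was seen (1.25 ± 0.28). Slc27a4 missed the threshold without troglitazone replicates 1 (adjusted p = 0.118) and 3 (0.165), without vehicle replicate 1 (0.176) and after length correction (0.23). Fabp5, the fatty acid binding protein of keratinocytes, fell to 2876, 2117 and 1929 CPM with troglitazone, against 6188, 3792 and 4818 CPM with vehicle (log2 -1.10 ± 0.21, adjusted p = 0.013; 0.0617 without troglitazone replicate 3 and 0.0587 without vehicle replicate 1). The summed level of the list was between 5462 and 6647 CPM with troglitazone and between 6948 and 8748 CPM with vehicle. Fabp5 makes up much of that sum, with a mean of 2308 CPM with troglitazone and 4932 CPM with vehicle. The lower sum therefore does not describe the list, of which 20 of 24 were positive. With 1 library left out the list had from 2 higher (without troglitazone replicate 3 or vehicle replicate 1) to 14 higher (without vehicle replicate 3).

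Other well-known PPAR targets overlapped between the groups. Angptl4, a secreted lipase inhibitor, was at 13.8, 19.2 and 19.8 CPM with troglitazone, against 14.9, 19.2 and 30.8 CPM with vehicle (adjusted p = 0.558). Pdk4, which spares glucose by blocking pyruvate oxidation, was at 17.3, 14.8 and 85.5 CPM with troglitazone, against 12.1, 11.5 and 52.1 CPM with vehicle (adjusted p = 0.566), with replicate 3 high in both groups. Plin2, a lipid droplet protein, was at 241, 232 and 231 CPM with troglitazone, against 95.8, 256 and 120 CPM with vehicle (adjusted p = 0.194). Of 23 genes of oxidation and ketogenesis 2 were higher (8.70%, against 4.69% of all genes tested) and none lower, with a median of 0.18; none was higher without troglitazone replicate 3 or without vehicle replicates 1 or 2, and 7 were without vehicle replicate 3. Acaa1b, a peroxisomal thiolase, rose by log2 1.496 ± 0.375 (adjusted p = 0.034) and missed the threshold without any one of troglitazone replicates 1 (0.0656) and 3 (0.133) and vehicle replicates 1 (0.121) and 2 (0.0595).

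Adipocyte markers had a median of 0.96 over 18 genes, of which 1 passed: the sulfotransferase Sult1a1, which liver and other tissues also express and whose groups overlapped (log2 1.67 ± 0.45, adjusted p = 0.042; 0.179 and log2 1.04 without troglitazone replicate 3, 0.137 without vehicle replicate 1, 0.0728 without troglitazone replicate 1 and 0.0982 without vehicle replicate 2). Fabp4, a fat cell protein that PPARγ controls, was at 277, 149 and 247 CPM with troglitazone, against 96.7, 26.4 and 166 CPM with vehicle (adjusted p = 0.128). Adipoq, the defining hormone of fat cells, was at 46.2, 25.3 and 40.1 CPM with troglitazone, against 19.0, 4.42 and 41.4 CPM with vehicle (adjusted p = 0.369). Vehicle replicate 3 was the highest and vehicle replicate 2 the lowest vehicle library for both. The summed level of the 18 markers was between 691 and 1167 CPM with troglitazone and between 198 and 838 CPM with vehicle, and without vehicle replicate 3 14 of the 18 passed as higher. How far fat content moves the lipid genes above was not tested.

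Genes of fatty acid synthesis rose in part. Of 27 tested, 6 were higher and none lower, with a median of 0.40 and 26 of the 27 on the positive side. Fasn, fatty acid synthase, was at 925, 848 and 590 CPM with troglitazone, against 344, 487 and 378 CPM with vehicle (log2 0.97 ± 0.19, adjusted p = 0.0151; 0.0678 without vehicle replicate 1). Elovl6, an elongase of saturated fatty acids, was at 305, 369 and 389 CPM with troglitazone, against 181, 246 and 211 CPM with vehicle (log2 0.74 ± 0.15, adjusted p = 0.0179). It missed the threshold without troglitazone replicate 3 (adjusted p = 0.075), without vehicle replicate 1 (0.0771) and after length correction (0.0742). Of the list 7 passed without vehicle replicate 2, 13 without vehicle replicate 3, 3 without troglitazone replicates 2 or 3, 2 without troglitazone replicate 1 and none without vehicle replicate 1. After length correction 2 of the 6 remained. Scd1, a desaturase high in sebaceous glands, was at 2613, 3081 and 2589 CPM with troglitazone, against 1016, 2140 and 2183 CPM with vehicle, without overlap but short of the threshold (adjusted p = 0.114). Of 14 sebaceous gland genes all were positive and 3 passed as higher, with a median of 0.72: the wax synthase Awat2 (1.46 ± 0.33), the fatty alcohol enzyme Far2 (1.07 ± 0.26) and the sterol esterifying enzyme Soat1 (0.80 ± 0.18). None of the 14 passed without troglitazone replicates 1 or 3 or without vehicle replicate 1, while 10 passed without vehicle replicate 2; after length correction Far2 (0.06) and Soat1 (0.0658) missed the threshold.

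Of 18 LXR receptors and targets 3 were higher and none lower, with a median of 0.27. Apod, a lipocalin that binds small lipids, was at 583, 539 and 692 CPM with troglitazone, against 170, 247 and 240 CPM with vehicle (log2 1.46 ± 0.20, adjusted p = 0.00676), and passed with any library left out. Apoe, which carries cholesterol out of macrophages, was at 1442, 1252 and 1561 CPM with troglitazone, against 930, 1122 and 957 CPM with vehicle (log2 0.50 ± 0.11, adjusted p = 0.0235; 0.0618 and 0.0923 without troglitazone replicates 1 and 3, 0.0983 without vehicle replicate 1). Srebf1, the regulator of fatty acid synthesis, was at 219, 192 and 172 CPM with troglitazone, against 111, 159 and 123 CPM with vehicle (log2 0.57 ± 0.14, adjusted p = 0.0347). The call was lost without any one troglitazone library (p between 0.0627 and 0.0991), without vehicle replicate 1 (0.135) and after length correction (0.086). Of the 18, 1 was higher without troglitazone replicate 1, troglitazone replicate 3 or vehicle replicate 1, and 8 were without vehicle replicate 3. The cholesterol exporter Abca1 overlapped between groups (adjusted p = 0.227). None of 25 genes of cholesterol synthesis passed by edgeR or limma-voom, with a median of 0.06; 5 had an unadjusted p under 0.05, and DESeq2 called 1 higher and 1 lower. Of 21 genes of acylceramide barrier lipids 1 was higher and 1 lower, 4.76% each, which is near the 4.69% and 4.65% of all genes tested. The higher gene was Slc27a4. Sptlc2, a subunit of the first enzyme of sphingolipid synthesis, was lower (log2 -0.45 ± 0.10, adjusted p = 0.021). Its adjusted p was 0.0501, 0.0868 and 0.101 without troglitazone replicate 1, troglitazone replicate 3 and vehicle replicate 1, and 0.0555 after length correction.

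Enzymes of eicosanoid synthesis moved in opposite directions. Of 20 tested, 6 were higher and 1, Ptgs2, was lower. Ptgs2, the inflammatory cyclooxygenase, was at 13.9, 15.2 and 6.73 CPM with troglitazone, against 42.0, 29.3 and 65.9 CPM with vehicle, 3.82-fold higher in vehicle libraries. Alox5, the first enzyme of leukotriene synthesis, was at 23.6, 23.4 and 22.5 CPM with troglitazone, against 12.7, 14.1 and 15.1 CPM with vehicle (log2 0.73 ± 0.10, adjusted p = 0.00632). The troglitazone libraries were close together and above every vehicle library, and both genes passed with any library left out. Hpgd, which inactivates prostaglandins, rose by log2 0.59 ± 0.12 (adjusted p = 0.0163; 0.0691 without troglitazone replicate 3 and 0.052 without vehicle replicate 1). The epidermal phospholipase Pla2g2f rose by log2 0.59 ± 0.13 (adjusted p = 0.021; 0.0607 and 0.085 without troglitazone replicates 1 and 3). Of the list, 1 was higher without troglitazone replicate 3, 2 without vehicle replicate 1, 3 without troglitazone replicate 1 and 8 without vehicle replicate 3.

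**Figure D4:**
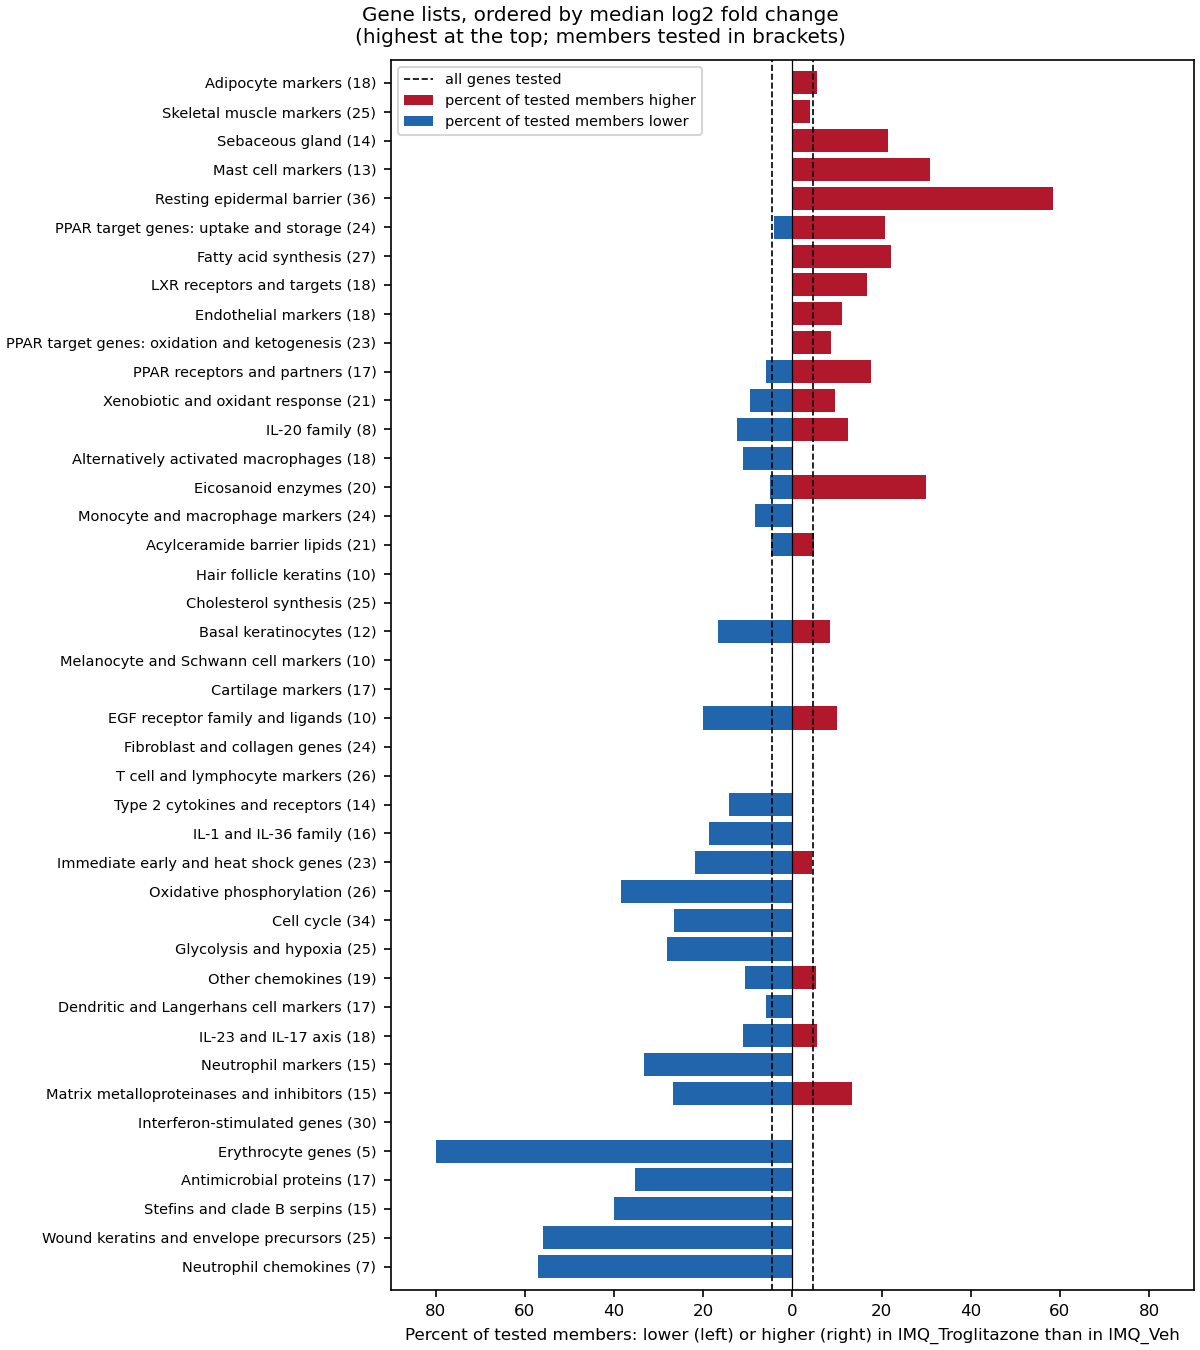
Percent of the tested members of each gene list that were lower (blue, to the left) or higher (red, to the right) in IMQ_Troglitazone than in IMQ_Veh at an edgeR adjusted p under 0.05, with lists ordered by their median log2 fold change; dashed lines mark 4.65% and 4.69%, the shares of all genes tested. Lists of fewer than 5 tested members are not drawn. Resting epidermal barrier genes have the highest share higher (58.3%), and neutrophil chemokines, wound keratins and erythrocyte genes the highest shares lower.

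Neutrophil chemokines, the CXCR2 ligands that recruit neutrophils, had the lowest median of all lists of 5 or more tested genes, -1.74, with 4 of 7 lower and none higher. Cxcl2 (chromosome 5, 90903871 to 90905938, plus strand of GRCm38) was at 7.62, 4.70 and 0.575 CPM with troglitazone, against 57.5, 51.4 and 40.7 CPM with vehicle. It was 11.6-fold higher in vehicle libraries (log2 -3.54 ± 0.71, adjusted p = 0.0159; -3.42 and adjusted p = 0.0594 without vehicle replicate 1, -4.27 without troglitazone replicate 1). Its neighbour Cxcl3 (chromosome 5, 90786103 to 90789600, plus strand) was at 2.58, 0.970 and 0.246 CPM with troglitazone, against 12.3, 18.8 and 10.8 CPM with vehicle (adjusted p = 0.0126; log2 -4.55 without troglitazone replicate 1). Troglitazone replicate 3 was the lowest for both and still above the UTX_Veh means of 0.347 CPM for Cxcl2 and 0.0262 CPM for Cxcl3. Cxcl5 fell by 3.54 ± 0.79 on the log2 scale (adjusted p = 0.0233), and missed the threshold without troglitazone replicates 1 (0.0646) and 3 (0.0644) and without vehicle replicate 1 (0.0527); without troglitazone replicate 2 it was -4.27. The fourth was Ppbp, of platelets, which was named after its value was seen (-1.74 ± 0.43, adjusted p = 0.0328; 0.0525 after length correction). The list had 2 lower without troglitazone replicates 1 or 3 and 1 lower without vehicle replicate 1.

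The start regions of Cxcl2 and Cxcl3 are shown because both genes fell strongly and both windows hold a match to NF-κB's motif, searched on both strands as GGGA, then any base, then TTTCC. The windows, from RefSeq on GRCm38.p6, run from 250 bases before to 50 bases after the annotated start; capitals mark the match, which begins 97 bases before the start of Cxcl2 and 73 before that of Cxcl3. Their places are chr5:90903649-90903948 and chr5:90785851-90786150, plus strand.
Cxcl2: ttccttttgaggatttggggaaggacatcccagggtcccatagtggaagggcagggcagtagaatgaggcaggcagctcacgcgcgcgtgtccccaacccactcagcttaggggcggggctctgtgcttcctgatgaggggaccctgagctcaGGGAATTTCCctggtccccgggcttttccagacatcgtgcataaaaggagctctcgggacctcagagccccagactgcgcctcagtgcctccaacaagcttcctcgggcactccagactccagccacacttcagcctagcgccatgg
Cxcl3: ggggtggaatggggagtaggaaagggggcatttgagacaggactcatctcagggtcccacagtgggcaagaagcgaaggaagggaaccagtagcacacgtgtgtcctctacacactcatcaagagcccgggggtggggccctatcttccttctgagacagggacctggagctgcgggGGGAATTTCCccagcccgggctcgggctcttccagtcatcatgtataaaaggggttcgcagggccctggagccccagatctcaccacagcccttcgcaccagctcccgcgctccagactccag
Of the 1600 changed genes 1177 had such a window in the table. The motif was in 6 of 576 windows of lower genes (1.04%), 3 of 601 of higher genes (0.499%) and 70 of 12224 of all genes tested (0.573%), so it was rare in each. A match is letters in a window and not a site shown to be bound.

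Among interleukin-1 genes few passed, and those that did were lower. Il1b (ENSMUSG00000027398, chromosome 2, 129364570 to 129371139, minus strand) was at 18.2, 13.1 and 1.44 CPM with troglitazone, against 114, 107 and 138 CPM with vehicle and a UTX_Veh mean of 1.03 CPM. It was 10.99-fold higher in vehicle libraries (log2 -3.46 ± 0.66, adjusted p = 0.0136; 0.0516 without vehicle replicate 1; log2 -4.06 without troglitazone replicate 1). Il33, an alarmin of keratinocytes, was at 94.6, 102 and 51.0 CPM with troglitazone, against 189, 158 and 193 CPM with vehicle (log2 -1.12 ± 0.28, adjusted p = 0.033; 0.0607 and 0.104 without troglitazone replicates 1 and 3, 0.106 without vehicle replicate 1). With Nlrp3 these made 3 lower and none higher among 16 genes of the interleukin-1 and interleukin-36 family, whose median was -0.22. That count was 1 without vehicle replicate 1, 2 without troglitazone replicates 1 or 3 and 5 without vehicle replicate 3.

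On the interleukin-23 and interleukin-17 axis, Il17a and Il23a were at 3.42 CPM or less in every troglitazone and vehicle library. Il17f reached 15.0 CPM. Il17a was at 0.169, 0.534 and 0 CPM with troglitazone, against 1.71, 3.42 and 0.577 CPM with vehicle (log2 -3.08 ± 0.84, adjusted p = 0.0494). It missed the threshold without troglitazone replicates 1 (adjusted p = 0.13) or 3 (0.134; log2 -2.47), without vehicle replicates 1 (0.122) or 2 (0.124; log2 -2.31) and after length correction (0.0665), and was at log2 -4.44 without troglitazone replicate 2. Il17f was at 1.35, 3.78 and 0.123 CPM with troglitazone, against 6.90, 15.0 and 3.94 CPM with vehicle (adjusted p = 0.127), and Il23a at 0.720, 1.21 and 0.328 CPM, against 1.297, 1.89 and 1.42 CPM (adjusted p = 0.228). Neither pair of groups overlapped, and neither difference passed. The receptor chain Il17rc fell by 0.31 ± 0.09 on the log2 scale (adjusted p = 0.0482) and passed in 1 of the 6 left-out fits, the one without vehicle replicate 3; after length correction p was 0.117. Of 18 genes on this axis 1 was higher and 2 lower, with a median of -0.56.

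In the interleukin-20 family, Il22ra1, a receptor chain for interleukin-22 on keratinocytes, rose to 38.3, 37.6 and 42.6 CPM with troglitazone, against 22.4, 18.6 and 20.5 CPM with vehicle (log2 0.95 ± 0.13, adjusted p = 0.00676), and passed with any library left out. Il24 was at 0.508, 1.07 and 0 CPM with troglitazone, against 1.45, 3.30 and 7.71 CPM with vehicle, and its adjusted p of 0.0499 was kept in 1 of the 6 left-out fits (log2 -4.01 without troglitazone replicate 2). Without the other libraries its p lay between 0.0641 and 0.13, and its log2 difference between -3.41 and -2.22; after length correction p was 0.0668. The other 6 members did not pass.

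Among 19 other chemokines Cxcl13 was higher and Ccl3 and Ccl4, which draw monocytes and T cells, were lower. Ccl3 was at 2.41, 0.970 and 0.492 CPM with troglitazone, against 9.49, 4.95 and 9.50 CPM with vehicle (log2 -2.62 ± 0.49, adjusted p = 0.0127; 0.0532 without vehicle replicate 1; log2 -3.45 without troglitazone replicate 1). Ccl4 fell by 3.36 ± 0.79 on the log2 scale (adjusted p = 0.0273), with p at 0.0648 and 0.0734 without troglitazone replicates 2 and 3 and at 0.075 without vehicle replicate 1; it was -4.45 without troglitazone replicate 1 and -2.76 without troglitazone replicate 3. No interferon-stimulated gene of 30 passed by edgeR or limma-voom, although 28 were negative and the median was -0.86; 8 had an unadjusted p under 0.05, and DESeq2 called 3 lower. Without vehicle replicate 2, 5 of the 30 were lower, and without vehicle replicate 3, 2 were higher.

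The series is titled for type 2 immunity, and the type 2 genes gave few calls. Il4 and Il13 stayed under the count filter, with 3 counts of Il4 in all troglitazone libraries together and 3 in vehicle libraries, and 10 counts of Il13 with troglitazone and 26 with vehicle. A difference in either was not detectable at this depth. Of 14 tested type 2 genes 2 were lower, Il33 and the growth factor Areg, and none higher. Areg was at 5.59, 6.98 and 2.26 CPM with troglitazone, against 14.9, 9.81 and 18.2 CPM with vehicle (log2 -1.53 ± 0.36, adjusted p = 0.0283; 0.0619 and 0.0742 without troglitazone replicates 1 and 3, 0.0929 without vehicle replicate 1). Of the list 3 were lower without troglitazone replicate 2 or without vehicle replicates 2 or 3, and none without troglitazone replicates 1 or 3 or vehicle replicate 1. Il4ra, the receptor for interleukin-4 and interleukin-13, was at 97.5, 115 and 61.9 CPM with troglitazone, against 113, 147 and 165 CPM with vehicle (adjusted p = 0.178). Of 18 genes of alternatively activated macrophages, a state in which PPARγ is known to take part, Arg1 and Chil4 were lower and none was higher. That held for edgeR with all libraries: limma-voom called 1 higher and none lower, and DESeq2 1 higher and 1 lower. Without vehicle replicate 3, edgeR called 2 higher and none lower. Arg1 was at 30.6, 10.5 and 18.1 CPM with troglitazone, against 96.5, 19.7 and 104 CPM with vehicle, with overlap (log2 -1.89 ± 0.53, adjusted p = 0.0466), and passed only without vehicle replicate 2. Without each other library its p lay between 0.0541 and 0.159, and after length correction it was 0.0579. Chil4 passed on 11.9 CPM in vehicle replicate 3 and had 1.56 CPM or less in every other library; it too passed only without vehicle replicate 2, its log2 difference lay between -9.61 and -2.92 without each other library, and it missed the threshold after length correction (0.0563). Retnla and Chil3 overlapped between groups (adjusted p = 0.811 and 0.778).

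Neutrophil markers were lower in part. Of 15 tested, 5 were lower and none higher, with a median of -0.74, and their summed level was between 186 and 211 CPM with troglitazone and between 270 and 291 CPM with vehicle. Trem1 was at 2.46, 2.52 and 0.739 CPM with troglitazone, against 9.18, 12.6 and 10.9 CPM with vehicle, and Clec4d, a C-type lectin, at 6.31, 4.46 and 3.78 CPM, against 15.1, 13.7 and 15.7 CPM (log2 -1.61 ± 0.20, adjusted p = 0.00632). Both passed with any library left out. Csf3r, the receptor for granulocyte colony-stimulating factor, was at 16.1, 12.4 and 6.61 CPM with troglitazone, against 39.5, 31.7 and 38.5 CPM with vehicle (log2 -1.64 ± 0.31, adjusted p = 0.0133; 0.0573 without vehicle replicate 1). The others were Clec4e (-1.91 ± 0.47, adjusted p = 0.0327; lost without troglitazone replicates 1 and 3 and vehicle replicates 1 and 2, with p of 0.0867, 0.101, 0.0781 and 0.0535) and Hcar2, named after its value was seen (-0.37 ± 0.11, adjusted p = 0.0475; called in 1 of the 6 left-out fits; 0.0864 after length correction). Cxcr2, which keratinocytes express as well, was at 37.2, 35.2 and 23.6 CPM with troglitazone, against 46.1, 53.6 and 41.9 CPM with vehicle (adjusted p = 0.165), and Ly6g, the defining neutrophil antigen, was under the filter with 2 counts with troglitazone and 14 with vehicle. Of the list 2 were lower without vehicle replicate 1, 3 without troglitazone replicate 1, troglitazone replicate 3 or vehicle replicate 2, and 6 without vehicle replicate 3.

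Monocyte and macrophage markers had a median of 0.10 over 24 genes, with 2 lower. Ccr2, the receptor that brings monocytes into tissue, fell to 14.2, 21.4 and 13.8 CPM with troglitazone, against 46.4, 37.4 and 63.6 CPM with vehicle (log2 -1.58 ± 0.28, adjusted p = 0.0126; 0.0533 without troglitazone replicate 3); the other was Cd14. The general macrophage markers overlapped: Adgre1 was at 99.97, 84.4 and 80.8 CPM with troglitazone, against 64.0, 28.3 and 104 CPM with vehicle (adjusted p = 0.49), and Csf1r at 168, 129 and 154 CPM, against 124, 78.8 and 171 CPM (adjusted p = 0.439). Without vehicle replicate 3, 5 of the 24 were higher. The 24 markers summed to between 1737 and 2101 CPM with troglitazone and between 1031 and 2291 CPM with vehicle. Of 17 dendritic and Langerhans cell markers 1 passed, the costimulator Cd80 (-0.93 ± 0.21, adjusted p = 0.0241; 0.0504 and 0.0978 without troglitazone replicates 2 and 3, 0.0944 without vehicle replicate 1), and the Langerhans cell lectin Cd207 did not overlap between groups but missed the threshold (log2 0.31, adjusted p = 0.183). Of these 17 markers 14 were negative, with a median of -0.44, and DESeq2 called 5 lower. They summed to between 498.4 and 621.5 CPM with troglitazone and between 646 and 1007 CPM with vehicle. No T cell marker of 26 passed by edgeR or limma-voom, with 4 at an unadjusted p under 0.05 and 3 called lower by DESeq2. The 2 tested eosinophil genes and 3 tested B cell genes passed in none of these, with 0 at an unadjusted p under 0.05. The defining eosinophil genes Siglecf and Epx were under the filter, with 12 and 1 counts with troglitazone and 20 and 1 counts with vehicle.

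Mast cell markers were on the higher side, with 4 of 13 higher and a median of 0.71. Tpsab1, a tryptase, was at 3.01, 2.76 and 3.98 CPM with troglitazone, against 1.25, 0.925 and 1.15 CPM with vehicle (log2 1.56 ± 0.31, adjusted p = 0.016; 0.0691 without troglitazone replicate 3 and 0.0573 without vehicle replicate 1). Tph1, Ms4a2 and Kit rose by log2 1.05 ± 0.28, 0.91 ± 0.23 and 0.86 ± 0.23 (adjusted p = 0.0405, 0.0357 and 0.0386), and each passed in only 1 of the 6 left-out fits, the one without vehicle replicate 3. Without the other libraries their p-values lay between 0.0508 and 0.145, and Kit missed the threshold after length correction (0.0531). The defining proteases overlapped: Cpa3 was at 61.9, 55.4 and 75.7 CPM with troglitazone, against 35.1, 19.3 and 64.2 CPM with vehicle (adjusted p = 0.166). Without vehicle replicate 3 10 of the 13 were higher, and without troglitazone replicate 3 or vehicle replicate 1 none was.

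In the epidermis, many genes of the wound and psoriasis programme were lower. Of 25 wound keratins and envelope precursors 14 were lower and none higher, 24 were negative and the median was -1.56. Krt6a, the keratin of wounded and psoriatic epidermis (ENSMUSG00000058354, chromosome 15, 101689910 to 101694307, minus strand), was at 3221, 2947 and 1092 CPM with troglitazone, against 9264, 6775 and 7087 CPM with vehicle and a UTX_Veh mean of 49.2 CPM. It was 3.19-fold higher in vehicle libraries (log2 -1.67 ± 0.36, adjusted p = 0.0199; 0.0771 without vehicle replicate 1). Sprr2k, a small proline-rich envelope protein, was at 1.06, 0.970 and 0.369 CPM with troglitazone, against 13.5, 5.51 and 6.61 CPM with vehicle (log2 -3.42 ± 0.63, adjusted p = 0.0127; 0.0557 without troglitazone replicate 3 and 0.0554 without vehicle replicate 1). Tgm3, a transglutaminase that cross-links the envelope, fell to 310, 313 and 197 CPM with troglitazone, against 649, 515 and 520 CPM with vehicle (log2 -1.04 ± 0.23, adjusted p = 0.0235; 0.0884 and 0.0955 without the same 2 libraries). Sprr1a fell by 0.89 ± 0.19 on the log2 scale (adjusted p = 0.0193; 0.0779 and 0.0701 without those 2). Krt16, the partner of Krt6a, was at 4262, 3450 and 1593 CPM with troglitazone, against 10680, 7399 and 7654 CPM with vehicle, without overlap but short of the threshold (log2 -1.47 ± 0.55, adjusted p = 0.11). The list's count rested on single libraries: none was lower without vehicle replicate 1, 1 without troglitazone replicate 3, 5 without troglitazone replicates 1 or 2, 7 without vehicle replicate 2 and 19 without vehicle replicate 3. After length correction 5 remained lower. Sprr2 and Lce3 genes, and Krt6a with its neighbour Krt6b, are close copies of one another, so how reads were shared among them is uncertain.

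Antimicrobial proteins had a median of -1.22 over 17 genes, 6 of them lower and none higher. Defb4, the mouse counterpart of human beta-defensin 2, was at 5.42, 4.27 and 1.76 CPM with troglitazone, against 28.8, 17.5 and 11.4 CPM with vehicle (log2 -2.34 ± 0.43, adjusted p = 0.0127; 0.0573 without vehicle replicate 1). S100a8, one of the calprotectin subunits of neutrophils and inflamed keratinocytes, was at 608, 475 and 126 CPM with troglitazone, against 3359, 3542 and 1917 CPM with vehicle and a UTX_Veh mean of 3.40 CPM (log2 -2.87 ± 0.75, adjusted p = 0.0381). Its partner S100a9 was at 1291, 1061 and 222 CPM with troglitazone, against 6091, 6440 and 3721 CPM with vehicle (log2 -2.66 ± 0.83, adjusted p = 0.0659). Neither overlapped between groups, and only the first passed. S100a8 passed only in the fit without vehicle replicate 3; without the other libraries its p lay between 0.0654 and 0.125, and after length correction it was 0.0574. Of the list none was lower without vehicle replicate 1, 1 without troglitazone replicates 1 or 2, 2 without troglitazone replicate 3, 4 without vehicle replicate 2 and 11 without vehicle replicate 3, and 1 after length correction. Stefins and clade B serpins, protease inhibitors of inflamed epidermis and myeloid cells, had 6 of 15 lower and a median of -1.55. Stfa2 was at 33.4, 23.5 and 13.0 CPM with troglitazone, against 178, 98.2 and 128 CPM with vehicle, and Stfa1 at 137, 69.4 and 41.7 CPM, against 555, 396 and 455 CPM (log2 -2.50 ± 0.51, adjusted p = 0.0163; 0.0691 without troglitazone replicate 3 and 0.0606 without vehicle replicate 1). The stefin genes are near-identical copies too. Of that list 1 was lower without troglitazone replicate 3 or vehicle replicate 1, 3 without troglitazone replicates 1 or 2 and after length correction, and 9 without vehicle replicate 3.

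The resting epidermal barrier had the largest share of higher genes of any list drawn: 21 of 36 were higher (58.3%) and none lower, with a median of 0.68. The list's summed level was between 71740 and 82220 CPM with troglitazone and between 49850 and 60450 CPM with vehicle. In UTX_Veh libraries it was lower still, between 30530 and 36640 CPM, so by its sum the list did not follow its name. Beside Flg2, described above, the late cornified envelope genes stood out. Lce6a was at 104, 80.9 and 133 CPM with troglitazone, against 49.1, 35.8 and 57.8 CPM with vehicle (log2 1.16 ± 0.18, adjusted p = 0.00948). Lce1l was at 167, 124 and 191 CPM with troglitazone, against 72.0, 67.4 and 89.8 CPM with vehicle (log2 1.07 ± 0.16, adjusted p = 0.00804). Lce1h was at 208, 148 and 227 CPM with troglitazone, against 104, 80.8 and 119 CPM with vehicle (log2 0.94 ± 0.16, adjusted p = 0.0114). No pair of groups overlapped, these 3 passed with any library left out, and Lce6a and Lce1h exceeded their UTX_Veh means of 34.5 and 92.0 CPM in every troglitazone library. Vehicle libraries were above those means too, all of them for Lce6a and replicates 1 and 3 for Lce1h. Lor, which encodes loricrin, was at 2746, 1929 and 2955 CPM with troglitazone, against 2002, 1166 and 1662 CPM with vehicle, with overlap and short of the threshold (log2 0.66 ± 0.20, adjusted p = 0.0579). The list had 5 higher without vehicle replicate 1, 7 without troglitazone replicate 3, 9 without troglitazone replicate 1, 16 without vehicle replicate 2 and 25 without vehicle replicate 3. After length correction 20 were higher, against 2.27% of all genes in that fit. Reads of the Lce1 genes, too, may be shared among close copies.

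The start regions of Flg2 and Sprr2k, envelope genes that moved in opposite directions, both match the motif of AP-1, a factor of keratinocyte differentiation, searched as TGANTCA, which reads the same on both strands. The capitals mark the matches, at 69 bases before the start of Flg2 and at 196 and 182 before that of Sprr2k. The windows are chr3:93197023-93197322 and chr3:92432332-92432631, plus strand, from RefSeq on GRCm38.p6.
Flg2: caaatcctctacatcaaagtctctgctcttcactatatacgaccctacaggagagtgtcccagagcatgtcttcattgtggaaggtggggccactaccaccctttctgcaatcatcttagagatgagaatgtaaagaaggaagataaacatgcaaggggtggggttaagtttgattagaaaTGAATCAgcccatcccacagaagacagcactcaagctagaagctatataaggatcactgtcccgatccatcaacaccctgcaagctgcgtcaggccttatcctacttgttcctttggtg
Sprr2k: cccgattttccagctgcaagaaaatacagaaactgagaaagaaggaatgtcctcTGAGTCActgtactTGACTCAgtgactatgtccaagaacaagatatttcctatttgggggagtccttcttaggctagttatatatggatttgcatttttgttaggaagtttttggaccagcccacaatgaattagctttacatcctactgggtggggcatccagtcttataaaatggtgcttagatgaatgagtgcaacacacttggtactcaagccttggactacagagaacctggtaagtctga
The motif was in 53 of 601 windows of higher genes (8.82%), 53 of 576 of lower genes (9.20%) and 871 of 12224 of all genes tested (7.13%).
A start window of Cd36, chr5:17835847-17836146 on the minus strand, is printed because Cd36 is a direct PPARγ target that rose. It lies inside the gene, which spans 17781690 to 17888801, and starts elsewhere in the gene were not searched.
Cd36: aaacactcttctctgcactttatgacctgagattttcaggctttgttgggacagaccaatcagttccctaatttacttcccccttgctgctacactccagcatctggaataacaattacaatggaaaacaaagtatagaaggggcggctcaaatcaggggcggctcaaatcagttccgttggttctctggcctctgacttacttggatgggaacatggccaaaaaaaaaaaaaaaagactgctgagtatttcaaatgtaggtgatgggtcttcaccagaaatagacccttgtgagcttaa
It holds no match to the direct repeat that PPARγ pairs bind, searched on both strands as a pair of AGGTCA with any 1 base between them. That strict form was in none of the 1177 windows of changed genes and in 7 of 12224 of all genes tested (0.0573%).

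Basal keratinocyte genes had 1 higher and 2 lower of 12, with a median of 0.06. Krt14, the basal keratin that wounded epidermis keeps in upper layers, was at 11210, 9627 and 7135 CPM with troglitazone, against 19530, 13200 and 15710 CPM with vehicle (log2 -0.79 ± 0.19, adjusted p = 0.0286). It missed the threshold without troglitazone replicates 2 (adjusted p = 0.0577) and 3 (0.108) and without vehicle replicate 1 (0.12). Col17a1, a hemidesmosome collagen, rose by log2 0.54 ± 0.12 (adjusted p = 0.0241) and missed it without the same 3 libraries (0.0547, 0.087 and 0.0984) and after length correction (0.113). Of 10 genes of the EGF receptor family, the ligands Areg and Hbegf were lower and Btc higher. Hbegf was at 43.1, 61.7 and 27.7 CPM with troglitazone, against 98.7, 99.2 and 98.5 CPM with vehicle (log2 -1.16 ± 0.21, adjusted p = 0.0126; 0.0516 without vehicle replicate 1). Btc rose by log2 1.31 ± 0.36 (adjusted p = 0.0451); its p was 0.0531 and 0.179 without troglitazone replicates 1 and 3, 0.121 and 0.11 without vehicle replicates 1 and 2, and 0.0623 after length correction.

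All 34 cell cycle genes were negative, with a median of -0.38, and 9 passed as lower. Birc5, the mitotic protein survivin, was at 29.2, 27.5 and 23.8 CPM with troglitazone, against 53.1, 58.0 and 40.6 CPM with vehicle and a UTX_Veh mean of 6.00 CPM (log2 -0.92 ± 0.16, adjusted p = 0.0117; 0.052 without vehicle replicate 1). Tpx2, a spindle factor, was at 47.7, 45.2 and 36.3 CPM with troglitazone, against 77.0, 76.7 and 58.7 CPM with vehicle (log2 -0.72 ± 0.15, adjusted p = 0.0196; 0.0815 without troglitazone replicate 3 and 0.0872 without vehicle replicate 1). Vehicle replicate 3 was the lowest vehicle library for both. The count was 0 without vehicle replicate 1, 1 without troglitazone replicate 3, 2 without troglitazone replicate 1, 3 without vehicle replicate 2 and after length correction, 5 without troglitazone replicate 2 and 24 without vehicle replicate 3.

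Of 25 genes of glycolysis and hypoxia, Aldoa standing under both of its identifiers, 7 were lower and none higher, with a median of -0.39. Pgk1, a glycolytic kinase, was at 342, 337 and 284 CPM with troglitazone, against 611, 506 and 476 CPM with vehicle (log2 -0.73 ± 0.12, adjusted p = 0.00948), and passed with any library left out. Ldha, lactate dehydrogenase, was at 795, 765 and 600 CPM with troglitazone, against 1210, 1081 and 1032 CPM with vehicle (log2 -0.62 ± 0.12, adjusted p = 0.013; 0.0611 without vehicle replicate 1). The count was 1 without vehicle replicate 1, 2 without troglitazone replicate 3, 3 without troglitazone replicate 2 and 11 without vehicle replicate 3. Of 26 nuclear genes of oxidative phosphorylation 10 were lower and none higher. They are short transcripts with small differences, such as Ndufa4 (-0.59 ± 0.11) and the cytochrome oxidase subunits Cox4i1 (-0.40 ± 0.08) and Cox5a (-0.35 ± 0.07). None of the 26 passed after length correction, none without troglitazone replicate 3 or vehicle replicate 1, and 16 without vehicle replicate 3.

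The differences rose with gene length throughout the table. Over the 17130 genes, Spearman's rho between the log2 difference and the mean length that RSEM reports was 0.30. In the shortest of 10 bins of equal size, 129 to 951 bases, the median difference was -0.27, and 2.04% of genes were higher and 17.7% lower. In the longest bin, 5149 bases and more, the median was 0.18, with 10.6% higher and 0.934% lower. Genes that were higher had a median length of 3370 bases and genes that were lower 1183, against 2399 for all tested. All 9 pairs of a troglitazone with a vehicle library gave a positive rho, between 0.10 and 0.34, taken as troglitazone minus vehicle. Between 2 libraries of a group, where the sign depends on which is subtracted, rho lay between 0.00 and 0.22 in size, so the ranges overlap. With each library's dependence on length taken out, 719 genes passed (4.2%), 388 higher (2.27%) and 331 lower (1.93%), and 656 of these were among the 1600. Of the 24 leading genes described first, each passed in that fit, as did Cd36, Il1b, Cxcl2, Krt6a, Alox5, Il22ra1, Apod, Lce6a and Birc5. Whether the trend comes from RNA quality, library preparation or the skin was not tested.

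**Figure D5:**
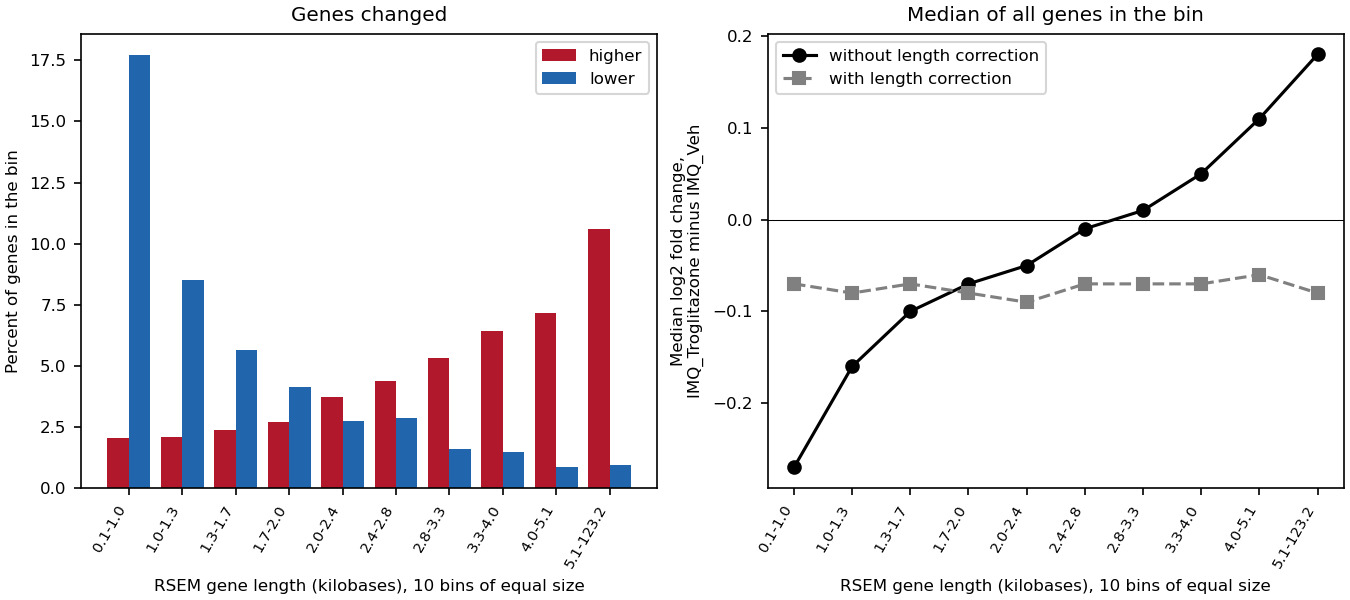
Genes tested were put into 10 bins of equal size by mean RSEM gene length (x axis, kilobases); the left panel shows the percent of each bin higher (red) and lower (blue) in IMQ_Troglitazone than in IMQ_Veh, and the right panel the median log2 fold change of the bin without (black) and with (grey) length correction. The share lower is 17.7% in the shortest bin and 0.934% in the longest, and the median runs between -0.27 and 0.18 without correction.

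Genes of other tissues of the ear were measured alongside. All 25 skeletal muscle genes were positive, with a median of 0.91, and 1 passed, Tcap, at 177, 123 and 272 CPM with troglitazone, against 25.4, 52.7 and 115 CPM with vehicle (log2 1.56 ± 0.44, adjusted p = 0.0482). The call was lost without troglitazone replicates 1 (0.0873) and 3 (0.185) and vehicle replicates 1 (0.124) and 2 (0.109), and was at log2 2.28 without vehicle replicate 3, when all 25 passed. Cartilage genes had a median of -0.06 over 17 genes and none passed by edgeR, with 4 at an unadjusted p under 0.05; DESeq2 called 2 higher and limma-voom 3, and without vehicle replicate 3, 7 were higher. No fibroblast gene of 24 passed by edgeR or limma-voom, with 3 at an unadjusted p under 0.05 and 1 called higher by DESeq2, and without vehicle replicate 3, 10 were higher. Col3a1 ranged between 484 and 1047 CPM with troglitazone and between 494 and 3924 CPM with vehicle. Of 18 endothelial genes Lyve1 and Flt4, both of lymphatic vessels, were higher. Lyve1 was at 38.8, 35.6 and 44.4 CPM with troglitazone, against 18.9, 11.5 and 25.0 CPM with vehicle (log2 1.10 ± 0.21, adjusted p = 0.0137), and Flt4 at 21.5, 21.3 and 21.6 CPM, against 8.09, 6.64 and 14.0 CPM (log2 1.17 ± 0.24, adjusted p = 0.016). Both missed the threshold without troglitazone replicate 3 (0.0592 and 0.0585) and without vehicle replicate 1 (0.0573 and 0.0706), and without vehicle replicate 3, 11 of the 18 passed. Of 5 tested erythrocyte genes 4 were lower, all of them hemoglobin genes. Hbb-bt was at 10.4, 13.7 and 8.04 CPM with troglitazone, against 39.7, 16.2 and 46.7 CPM with vehicle (log2 -1.68 ± 0.34, adjusted p = 0.0158). Its adjusted p was 0.0738 without troglitazone replicate 3 and 0.0636 without vehicle replicate 1. None of the 5 passed without those 2 libraries, 1 passed without troglitazone replicates 1 or 2 and after length correction, and hemoglobin genes share reads among copies. No hair follicle gene of 10 and no melanocyte or Schwann cell gene of 10 passed by edgeR or limma-voom, with 1 and 3 at an unadjusted p under 0.05, and DESeq2 called 1 hair follicle gene higher.

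Stress and matrix genes had members of both directions. Of 23 immediate early and heat shock genes 1 was higher and 5 lower. The chaperone Hspa1a rose to 96.1, 97.8 and 87.6 CPM with troglitazone, against 58.8, 68.8 and 55.8 CPM with vehicle (log2 0.62 ± 0.09, adjusted p = 0.00742), and passed with any library left out. Junb, an AP-1 subunit, fell by 0.60 ± 0.14 on the log2 scale (adjusted p = 0.0284; 0.093 and 0.0599 without vehicle replicates 1 and 2). The other 4 were Ier3, Hspe1 and, named after their values were seen, Ier2 and Zfp36. Ier3 (0.0619) and Hspe1 (0.0896) missed the threshold after length correction. Of the 5, none was lower without vehicle replicate 1 and 1 without troglitazone replicates 1 or 3. Of 21 xenobiotic and oxidant response genes Gstm1 and Aldh1a1 were higher and Gsta4 and Tiparp lower, the last of these lost without troglitazone replicates 1 and 3 and without vehicle replicates 1 and 2 (0.0863, 0.129, 0.122 and 0.0747). Gstm1 was at 102, 95.1 and 131 CPM with troglitazone, against 63.3, 57.8 and 72.0 CPM with vehicle (log2 0.77 ± 0.14, adjusted p = 0.0127; 0.0544 without vehicle replicate 1). Aldh1a1, which makes retinoic acid, rose by log2 1.75 ± 0.42 (adjusted p = 0.0284; 0.114 without troglitazone replicate 3, 0.113 and 0.067 without vehicle replicates 1 and 2). Of 15 matrix metalloproteinases and inhibitors 2 were higher, Timp2 and Timp3, named after their values were seen and both lost after length correction (0.0571 and 0.0614), and 4 lower. Plau, the urokinase, fell to 39.95, 39.9 and 35.95 CPM with troglitazone, against 60.1, 71.1 and 62.5 CPM with vehicle (log2 -0.74 ± 0.11, adjusted p = 0.00682), and passed with any library left out. Its receptor Plaur fell by 1.35 ± 0.27 (adjusted p = 0.0157; 0.0573 without vehicle replicate 1) and Timp1 by 1.69 ± 0.41 (adjusted p = 0.0304; 0.053, 0.0617 and 0.0632 without troglitazone replicates 1 and 3 and vehicle replicate 1; 0.0505 after length correction). Mmp13, the fourth, fell by 2.82 ± 0.81 on the log2 scale, just under the threshold, with 15.5 CPM in vehicle replicate 3 and 3.84 CPM or less in every other library. It passed in 1 of the 6 left-out fits, the one without vehicle replicate 2, was at log2 -1.58 without vehicle replicate 3 (adjusted p = 0.103) and missed the threshold after length correction (0.0575).

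Set directly against the LXR agonist GW3965, troglitazone differed in 319 genes (1.86% of those tested), 134 higher (0.782%) and 185 lower (1.08%). GW3965 replicate 3 stood apart, with 11.6% of its counts in a single gene, ENSMUSG00000119584, which took between 0.0454% and 0.138% in the other libraries of the series; with that gene left out 301 genes differed. The doses, 150 mg/kg and 20 mg/kg, and the compounds differ, so this shows where the libraries differ and not the receptors. Of the 12 genes Il1b, Cxcl2, Cxcl3, Osm, Nlrp3, Ptgs2, Trem1, Cd14, S100a8, Krt6a, Stfa1 and Birc5, none differed between the agonists at an edgeR adjusted p under 0.05 (0.337 to 0.982), which does not show that the compounds act alike. For Il1b the difference, troglitazone minus GW3965, was -0.56 on the log2 scale. Of the 12 higher genes described first, Slc5a7 differed between the agonists (edgeR adjusted p = 0.0388) and the others did not (0.358 to 0.994). Cd36 did not differ either, with means of 205 CPM with troglitazone and 174 CPM with GW3965 (adjusted p = 0.683). For Flg2 the means were 542 and 440 CPM (0.733). The count of 319 fell to 0 when any one of troglitazone replicates 2 and 3 or GW3965 replicates 1 and 3 was left out, to 88 without troglitazone replicate 1, to 109 without GW3965 replicate 2 and to 91 without vehicle replicate 1, whose spread the fit shares. It was 721 without vehicle replicate 3 and 2 after length correction. At an unadjusted p under 0.05, the 4 fits with 0 calls had between 1975 and 2608 genes.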

How the data were processed

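Each library was a TruSeq stranded mRNA library of ear skin RNA, per the labels' protocols. The deposited tables hold RSEM expected counts per gene, which the authors made with Trim Galore, STAR 2.7.3a and RSEM 1.3.3 on GRCm38, per the submitters' processing notes. The deposited TPM values, scaled by RSEM for transcript length, were used only to compare levels between genes, and the deposited RSEM length column only for the length trend. RSEM divides reads among similar genes by estimation, so values of near-identical copies are uncertain.

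Expected counts were rounded to whole numbers. Genes were kept by filterByExpr and scaled by TMM, and all 12 libraries were fitted together with edgeR 4.0.16 (R 4.3.3), whose quasi-likelihood test with Benjamini-Hochberg adjustment gave every adjusted p in the text unless another tool is named. The threshold was 0.05, and a standard error is the log2 fold change divided by the root of F. This joint fit shares 1 estimate of spread across 4 groups. Gene names and coordinates came from GENCODE M21, which matched 52135 of 55416 identifiers. Length correction used a loess curve per library (span 0.5) as an offset. The procedure was also run on simulated counts, in which no library was set apart from its group. That run cannot speak to the dependence on single libraries.

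Genes were named by rule: 12 in each direction among those changed, whose mean reached 1 CPM and whose groups did not overlap, ranked by how many of the 6 fits with a library left out still called them and then by size; up to 4 changed members of each list by the same order, or, in a list without changes, its 2 genes of highest level; and 29 genes of this field. The members, lists and named genes were chosen with earlier results of these data known. The alternatives were other scalings, filters, limma 3.58.1 (voom), DESeq2 1.42.0, covariates, and left-out libraries. Results of a few genes are not reported here.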

Additional observations from a re-analysis of the deposited data

Results flagged for a closer look

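These results differed between the 2 agonists in the direct comparison of troglitazone with GW3965 (edgeR, adjusted p under 0.05), the doses being 150 mg/kg and 20 mg/kg. The differences are given as troglitazone minus GW3965 on the log2 scale. Slc5a7, the choline transporter, differed by 2.76 ± 0.56, with 7.11, 4.51 and 9.40 CPM with troglitazone, against 1.49, 1.09 and 0.406 CPM with GW3965. Il22ra1, the interleukin-22 receptor chain, differed by 0.63 ± 0.13, Alox5, the leukotriene enzyme, by 0.44 ± 0.10, and the coactivator Ncoa1 by 0.38 ± 0.07. Among LXR targets, Srebf1 differed by -0.66 ± 0.14, with 219, 192 and 172 CPM with troglitazone, against 311, 347 and 265 CPM with GW3965. Apoe differed by -0.50 ± 0.11, with 1442, 1252 and 1561 CPM with troglitazone, against 2049, 1945 and 2008 CPM with GW3965. The hemoglobin gene Hbb-bs differed by -1.39 ± 0.30 and the cytochrome oxidase subunits Cox4i1, Cox5a and Cox5b by -0.41 ± 0.08, -0.36 ± 0.07 and -0.38 ± 0.09. The adjusted p-values of these 10 lay between 0.0358 and 0.0492. After length correction 2 of all genes passed in this comparison, and none passed without any one of troglitazone replicates 2 or 3 or GW3965 replicates 1 or 3.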

How the results depend on the processing

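For troglitazone against vehicle, 1600 genes changed. The count was 2590 by DESeq2, 1009 with the lane field, 991 with the lane field and replicate block, 719 with length correction, 938 with length correction and replicate block, 1036 without GW3965 replicate 2, 4183 without vehicle replicate 3 and GW3965 replicate 3, and 0 by edgeR or limma-voom on only the 2 groups, the second chosen after seeing the data. Leaving out 1 library gave 162 to 4491. For troglitazone against GW3965, 319 genes changed; the count was 960 by DESeq2, 866 by DESeq2 on only the 2 groups, 140 with no filter on low counts, 131 with the replicate block, 26 with block and lane field, 9 by edgeR and 2 by limma-voom on only the 2 groups, 2 with length correction with or without the block, and 0 without vehicle replicate 3 and GW3965 replicate 3. Leaving out 1 library gave 0 to 721. The cause was not tested; fits of fewer libraries estimate the spread from fewer.

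Replicate numbers were not taken to pair the samples: same-numbered libraries correlated at 0.072, 0.219 and 0.096, and 2 of these 3 are under 0.1. In the data 5 of the 6 libraries correlated best with their own number, and 5 of the 6 other pairs were negative (-0.174 to 0.078). Troglitazone replicate 1 correlated best with vehicle replicate 3. The correlations are of deviations from each group's mean, which cancel within a group. A positive same-number value thus pushes the other pairs down, so these counts cannot decide whether the samples are paired. With the replicate block 1715 genes changed against vehicle. Of 122 changed named genes, 121 remained by DESeq2, 116 by limma-voom, 115 with the block, 91 with the lane field and 85 with length correction. None of these changed direction.

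A few genes that were not called changed sign. Cd4 was at 0.044 with block and lane field, and Chil3 at -0.14 by limma-voom on all or on only the 2 groups. Without vehicle replicate 3 and GW3965 replicate 3, Ighm was at 0.24, Cd79b at 0.28, Mbp at 0.021 and Angptl4 at 0.055. Over the fits that leave out libraries, that pair included, the ranges were -0.074 to 0.382 for Ear1, -0.73 to 0.24 for Ighm, -0.61 to 0.28 for Cd79b, -0.105 to 0.021 for Mbp, -0.499 to 0.055 for Angptl4, -0.64 to 1.75 for Pdk4, -0.23 to 1.49 for Retnla and -0.36 to 0.72 for Chil3.

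Il4, Il13, Ly6g, Siglecf and Epx had too few counts to test.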

Other observations

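The groups of genes below were picked after their values were seen, so their counts describe these libraries and no more. Of 18 genes known as targets of the glucocorticoid receptor, 9 were higher with troglitazone and 2 lower, where 4.69% and 4.65% of all genes tested were. Fkbp5, a co-chaperone of that receptor, was at 61.5, 64.9 and 170 CPM with troglitazone, against 21.6, 32.8 and 25.9 CPM with vehicle (log2 1.88 ± 0.36, adjusted p = 0.0137; 0.0637 without vehicle replicate 1; log2 1.24 without troglitazone replicate 3). Tsc22d3, which encodes the leucine zipper protein GILZ, was at 131, 82.4 and 327 CPM with troglitazone, against 48.7, 37.3 and 70.0 CPM with vehicle (log2 1.79 ± 0.41, adjusted p = 0.0251; 0.0732 and log2 1.04 without troglitazone replicate 3; 0.0958 and 0.059 without vehicle replicates 1 and 2). Troglitazone replicate 3 was the highest library for both. UTX_Veh libraries averaged 59.8 CPM of Fkbp5 and 305 CPM of Tsc22d3. Of the 18, 5 were negative, and the 2 lower were Nfkbia (log2 -0.68 ± 0.17, edgeR adjusted p = 0.0346) and Anxa1 (-0.54 ± 0.11, 0.016). Both missed the threshold without troglitazone replicate 3 or vehicle replicate 1. The 18 summed to between 1729 and 2479 CPM with troglitazone and between 1953 and 2066 CPM with vehicle. The number higher was between 1 and 12 with 1 library left out, and none of the 18 differed from GW3965 at that threshold.

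Of 86 tested genes of cytosolic ribosomal proteins 69 were lower with troglitazone (80.2%) and none higher, with a median of -0.39. After length correction 1 was lower, where 1.93% of all genes were, and the count was between 5 and 80 with 1 library left out. Against GW3965, 48 of the 86 were lower and none higher, where 1.08% and 0.782% of all genes tested were. In that comparison 2 of all genes passed after length correction. Of 11 Skint genes, a mouse family expressed by keratinocytes, 5 were higher and all 11 were positive. Skint5 was at 15.5, 17.2 and 21.1 CPM with troglitazone, against 6.85, 8.32 and 7.56 CPM with vehicle and a UTX_Veh mean of 43.8 CPM (log2 1.24 ± 0.13, adjusted p = 0.00562). The number of Skint genes higher was between 1 and 6 with 1 library left out. Of 4 tested flavin-containing monooxygenase genes, Fmo1 and Fmo2 were higher. Fmo1 was at 18.4, 16.3 and 34.6 CPM with troglitazone, against 7.42, 3.22 and 12.8 CPM with vehicle (log2 1.58 ± 0.43, adjusted p = 0.0426), and missed the threshold without troglitazone replicates 1 (0.0653) and 3 (0.175) and vehicle replicates 1 (0.136) and 2 (0.0723).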
